A study of Homo sapiens with 12 samples.

Results

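The 9 genes described here encode neurexins, neuroligins and other synaptic adhesion proteins: NRXN2, NRXN3, NLGN1, NLGN2, NLGN3, NLGN4X, LRRTM1, LRRTM2 and CNTNAP2. They were taken by symbol from a table of 59653 genes, all 9 were found, and all 9 were among the 24671 genes kept after removal of genes with low counts. The libraries were made from total RNA of human neurons that had been differentiated from iPSCs (induced pluripotent stem cells); the line named is IMR-90, established fetal lung fibroblasts. Cells of 6 libraries had received a negative control siRNA (siNC) and cells of the other 6 an siRNA against ZCCHC17 (siZCC), a zinc finger protein that binds RNA; no other treatment is named, and all groups share the one parental line. The age of the cultures and the number of siRNA sequences are not given in the labels, and the letters NPC in the sample titles are not explained. Nothing says that the replicates were separate cultures, so the p-values measure the spread between these libraries, which may be technical.

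Neurexins sit in the presynaptic membrane and bind partners across the cleft, and each gene gives long and short forms from separate promoters and many splice variants. Neuroligins are their classical postsynaptic receptors: NLGN1 is best known from excitatory synapses, NLGN2 from inhibitory ones, NLGN3 from both, and NLGN4X is an X-linked member linked to autism. The LRRTM proteins are a second class of postsynaptic neurexin ligand, and CNTNAP2 (CASPR2) is a neurexin-like axonal protein that clusters potassium channels near nodes of Ranvier. Counts per gene add up all forms of a gene, so splice forms, on which neurexin binding depends, were not measured.

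Depth was 90755953 to 120023356 counts per siNC library and 76115083 to 105389055 per siZCC library, and the 9 genes rested on 658 to 48019 counts per library. In CPM, counts relative to the TMM-scaled library total, ZCCHC17 itself averaged 56.9 ± 2.49 under the control siRNA and 9.999 ± 0.507 under its own (SD, n = 6 each), with no overlap, so the target was lower in every library labelled siZCC. The cultures held neuron transcripts such as MAP2 (1027 CPM in siNC), DCX (648.8 CPM) and STMN2 (483.6 CPM). Other neuron markers were low, with TUBB3 at 14.2 and RBFOX3 at 1.27 CPM. Progenitor transcripts were abundant, with VIM at 3550, NES at 1118 and SOX2 at 621 CPM. Proliferation markers were present too, TOP2A at 206.5 and MKI67 at 205.3 CPM. The astroglial marker GFAP was at 615.5 CPM, while 6 of 7 microglia markers were under 1 CPM. GAD1, a marker of GABAergic neurons, stood at 236.8 CPM in siNC, far above the other markers of its list. Of these, SLC32A1 was at 36.5, GAD2 at 17.4 and LHX6 at 0.088 CPM. SLC17A6, a marker of glutamatergic neurons, was at 28.8 CPM, with SLC17A7 at 1.46 and TBR1 at 0.21 CPM. Libraries also fell into 2 sets by IL1B, a cytokine transcript at 5.228 to 15.97 CPM in 3 libraries of each group (siNC replicates 2, 3 and 6 and siZCC replicates 1, 4 and 5) and at most 0.09999 CPM in the rest. The labels give no reason for that difference, and the 9 genes are given for both sets below.

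Compared per kilobase of exon (GENCODE v29, all exons of a gene merged), the order of levels in siNC was NLGN2, NLGN3, NRXN2, NLGN4X, LRRTM2, NLGN1, CNTNAP2, LRRTM1 and NRXN3. NLGN2 stood at 70.1 ± 3.38 CPM per kb, NLGN3 at 35.8 ± 1.28, NRXN2 at 28.6 ± 2.19 and NLGN4X at 14.8 ± 0.794 CPM per kb (SD, n = 6). LRRTM2 followed at 8.97 ± 0.672 and NLGN1 at 4.44 ± 0.309 CPM per kb. The ranges of neighbours in this order did not overlap down to NLGN1. The last 3 genes, CNTNAP2 (1.79 ± 0.0783 CPM per kb), LRRTM1 (1.76 ± 0.113) and NRXN3 (1.66 ± 0.105), had overlapping ranges and cannot be ordered. NLGN2 and NLGN3 were thus the leading neuroligins of these cultures, and in siZCC the order was the same except that LRRTM1 (1.72 CPM per kb) stood before CNTNAP2 (1.61 CPM per kb). Merged exons count every annotated form, so a gene with long, rarely used exons is placed too low.

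**Figure D1:**
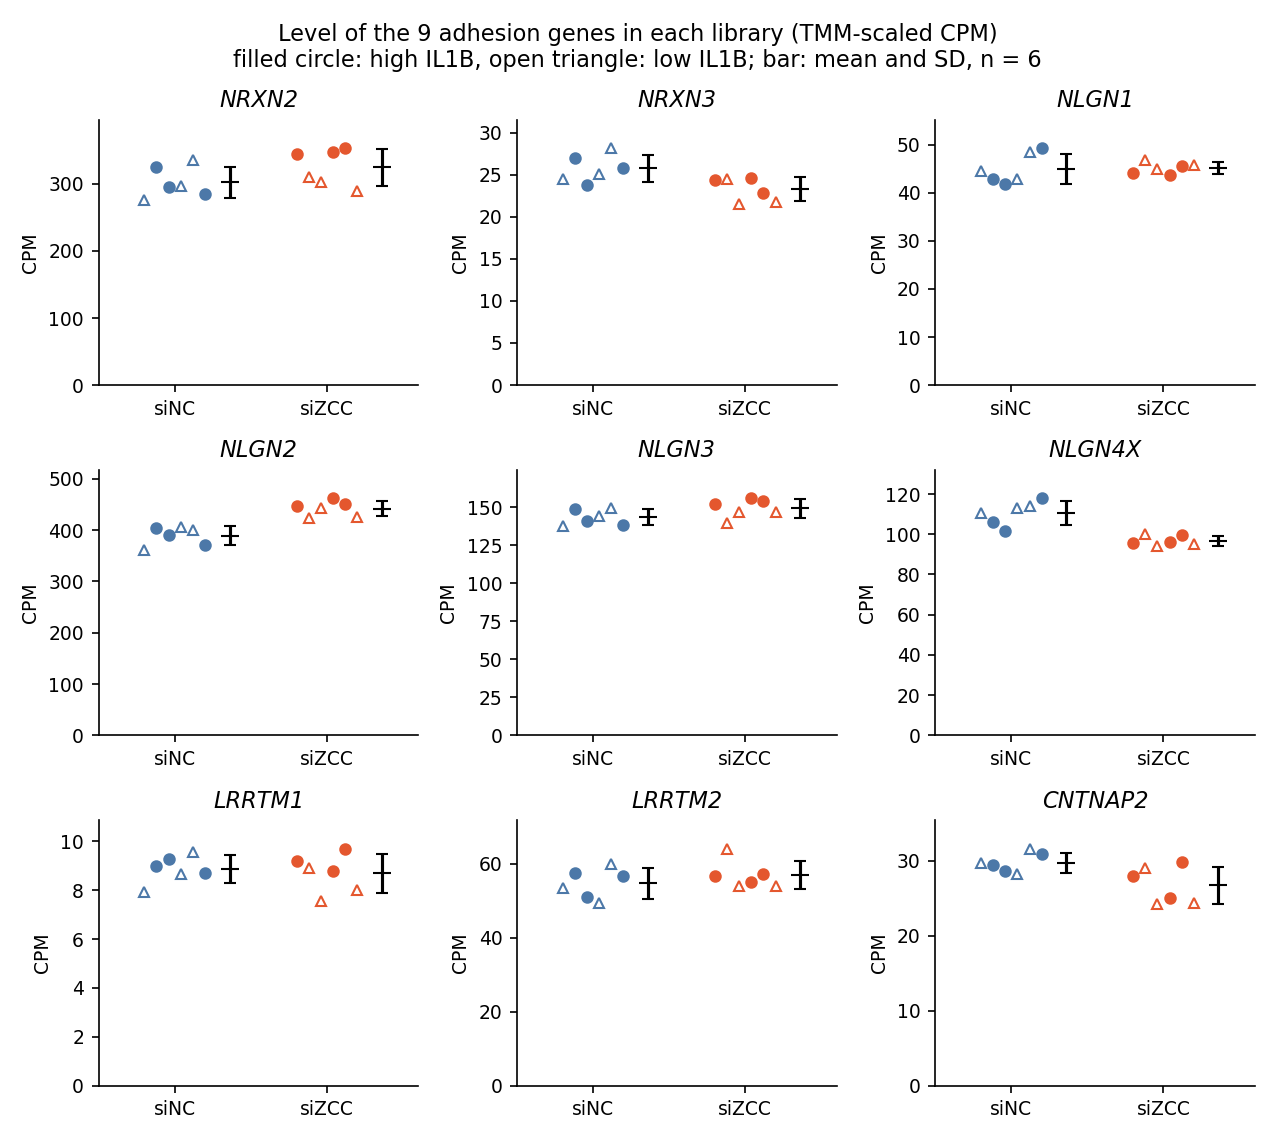
Level of each of the 9 genes (vertical axes, TMM-scaled CPM from 0) in the 6 siNC and 6 siZCC libraries, with filled circles for libraries high in IL1B, open triangles for those low in IL1B, and the mean and SD beside each group. The NLGN2 values of siZCC lie above, and those of NLGN4X below, every siNC value, while the groups overlap in the other 7 genes.

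The neuroligins were compared first, and they did not move together: NLGN2 rose, NLGN4X fell, and NLGN1 and NLGN3 did not pass the test. NLGN2 (ENSG00000169992, chromosome 17, 7404874 to 7419860, plus strand, GRCh38) was between 360.7 and 406.3 CPM in siNC (median 395.7) and between 424.3 and 462.1 CPM in siZCC (median 445.3). All 6 siZCC values exceeded all 6 siNC values. The means were 389 ± 18.8 and 442 ± 14.9 CPM (SD, n = 6 each), a log2 fold change of 0.18 (SE 0.0339; 95% interval 0.11 to 0.26), or 13.7% more, with an adjusted p of 9.39e-04 (edgeR quasi-likelihood F test, Benjamini-Hochberg over all genes kept). In bulk RNA, a change in the share of cells that express a gene and a change in its RNA per cell cannot be told apart.

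NLGN4X (ENSG00000146938, X chromosome, 5840637 to 6228863, minus strand) went the other way. It was between 101.4 and 117.8 CPM in siNC (median 111.8) and between 94.1 and 99.9 CPM in siZCC (median 95.9). Every siZCC library was below every siNC library, with the smallest gap to siNC replicate 3. The means of 110.4 ± 5.91 and 96.8 ± 2.48 CPM (SD, n = 6 each) gave a log2 fold change of -0.19 (SE 0.0346; 95% interval -0.26 to -0.12; edgeR adjusted p 8.90e-04), a percent change of -12.3. A near-identical copy of this gene lies on the Y chromosome, and how reads that match both were counted is not stated. Among the 24671 genes, 9.74% had groups that did not overlap, 5.25% with siZCC higher and 4.5% with siZCC lower.

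NLGN3 (ENSG00000196338, X chromosome, 71144831 to 71171201, plus strand) averaged 143.5 ± 5.13 CPM with the control and 149.4 ± 6.05 CPM with the ZCCHC17 siRNA (SD, n = 6 each). Its log2 fold change of 0.06 had an interval of -0.01 to 0.13 and an edgeR adjusted p of 0.224. NLGN1 (ENSG00000169760, chromosome 3, 173396284 to 174286644, plus strand) was at 45.0 ± 3.14 and 45.2 ± 1.15 CPM (SD, n = 6 each), and its interval, -0.08 to 0.09 around 0.01, was centred near 0 (edgeR adjusted p 0.944). The intervals leave room for a change of NLGN1 of up to 6.46% upwards or, at the lower bound of -5.35%, downwards.

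Within the counts of these 4 neuroligins, NLGN2 took 54.8 to 57.9% in siNC and 59.6 to 60.97% in siZCC. The share of NLGN4X was 15.0 to 17.4% in siNC and 12.7 to 14.1% in siZCC. Neither pair of ranges overlapped. NLGN3 held 20.9 ± 0.349% and 20.4 ± 0.391%, and NLGN1 6.55 ± 0.493% and 6.17 ± 0.302% (SD, n = 6 each), with ranges that overlapped for both. These shares come from the same counts as the fold changes and add no separate evidence, but they do not depend on how libraries were scaled; they are shares of counts, not of molecules, since gene lengths differ.

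**Figure D2:**
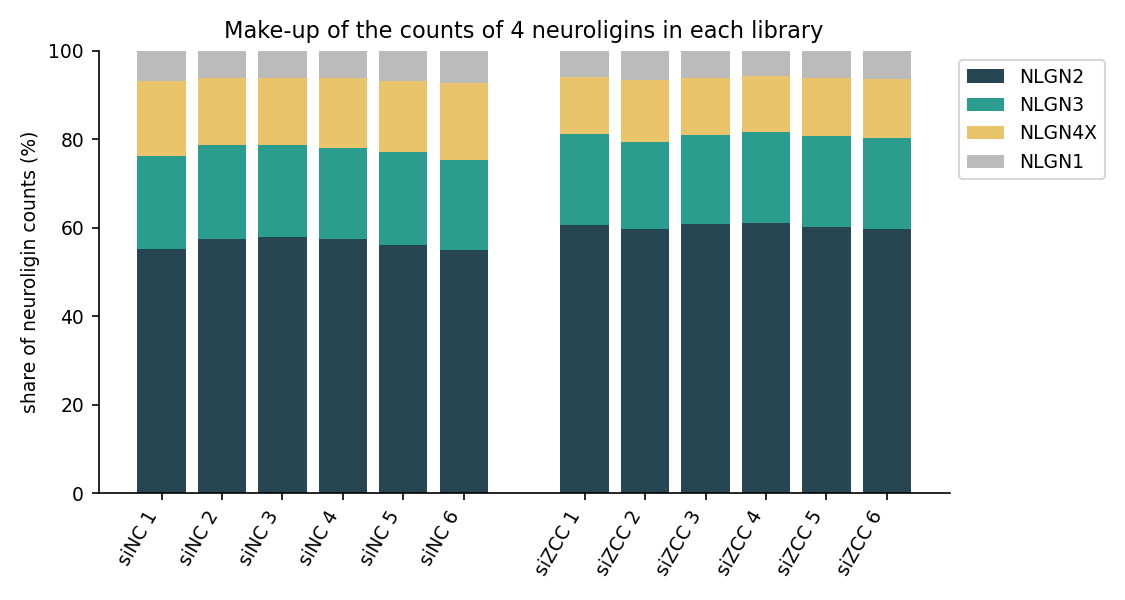
Share of the summed counts of NLGN1, NLGN2, NLGN3 and NLGN4X (vertical axis, percent) taken by each gene in the 12 libraries. The NLGN2 part is 59.6 to 60.97% in siZCC against 54.8 to 57.9% in siNC, and the NLGN4X part is smaller in every siZCC library.

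A sequence around a RefSeq start of NLGN2 and one of NLGN4X are shown because these were the only members without overlap between the groups. Each window runs 300 bases, from 250 before to 50 after a RefSeq transcription start (GRCh38.p14), and is written along the gene's strand with CG dinucleotides in capitals.
NLGN2, chr17:7407595-7407894, plus strand: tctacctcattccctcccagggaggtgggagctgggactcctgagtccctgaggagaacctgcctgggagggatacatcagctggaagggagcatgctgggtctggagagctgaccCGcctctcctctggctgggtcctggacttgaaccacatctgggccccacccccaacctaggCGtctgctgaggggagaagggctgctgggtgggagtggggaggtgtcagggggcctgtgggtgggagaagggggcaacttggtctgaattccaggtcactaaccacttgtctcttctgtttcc
NLGN4X, chrX:6228818-6229117, minus strand: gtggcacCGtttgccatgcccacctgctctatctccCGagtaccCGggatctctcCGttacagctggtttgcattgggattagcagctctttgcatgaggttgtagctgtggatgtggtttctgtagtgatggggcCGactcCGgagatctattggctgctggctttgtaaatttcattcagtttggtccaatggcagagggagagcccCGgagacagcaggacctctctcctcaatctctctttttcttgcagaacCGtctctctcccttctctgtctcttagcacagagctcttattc
The NLGN2 window held 61.7% GC but 2 CG dinucleotides, and the NLGN4X window 52.0% GC and 8 CG dinucleotides. Over the 35116 windows of the RefSeq table the median was 14, at least 1 CG dinucleotide (which reads the same on both strands) was in 96.0% of windows, and 18.2% held as few as the NLGN2 window. The NLGN2 window lies 2971 bases into the gene as GENCODE draws it, so other starts upstream are annotated, whereas the NLGN4X window is 4 bases from the GENCODE start; a second RefSeq window of NLGN4X, 1776 bases into the gene, held 24 CG dinucleotides and 67.3% GC. The CCAAT motif, on either strand, occurred 3 times in the NLGN4X window and 0 times in the NLGN2 window, against at least 1 in 34.6% of all windows. Windows were found for 8 of the 9 genes, 12 in all. No binding or chromatin data were used here.

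The neurexins were compared next: NRXN3 fell by a small amount, while the far more abundant NRXN2 did not pass the test. NRXN3 (ENSG00000021645, chromosome 14, 78170373 to 79868290, plus strand) was between 23.8 and 28.2 CPM in siNC (median 25.5) and between 21.6 and 24.6 CPM in siZCC (median 23.6). The groups overlapped: siNC replicates 1 and 3 lay within the siZCC range. Its means of 25.7 ± 1.64 and 23.3 ± 1.43 CPM (SD, n = 6 each) gave a log2 fold change of -0.15 (SE 0.0473; 95% interval -0.25 to -0.05; edgeR adjusted p 0.0346), a percent change of -9.62. The call was lost when any 1 of 6 libraries was left out (siNC replicate 2, 5 or 6, siZCC replicate 3, 5 or 6), with adjusted p between 0.0195 and 0.0755 over the 12 such fits.

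NRXN2 (ENSG00000110076, chromosome 11, 64606174 to 64723188, minus strand) was between 276.2 and 335.9 CPM in siNC (median 296.5) and between 289.1 and 353.6 CPM in siZCC (median 327.8). Its log2 fold change of 0.10 (SE 0.0552; 95% interval -0.01 to 0.22) had an edgeR adjusted p of 0.205. NRXN2 made up 92.2 ± 0.323% of the summed counts of NRXN2 and NRXN3 in siNC and 93.3 ± 0.417% in siZCC (SD, n = 6 each). The ranges, 91.7 to 92.6% and 92.7 to 93.9%, came close but did not overlap. This share comes from the same counts as the fold changes and adds no separate evidence. The longest transcripts of the 2 genes differ in GC content (64.5% and 41.5%), and the share was not corrected for the GC trend described below. How often the shares of 2 genes differ without overlap was not worked out. NRXN2 was also the member that varied most between the 2 sets of libraries by IL1B, as described below.

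Neither LRRTM gene passed the test. LRRTM2 (ENSG00000146006, chromosome 5, 138868923 to 138875368, minus strand) averaged 54.7 ± 4.10 CPM with the control and 56.9 ± 3.78 CPM with the ZCCHC17 siRNA (SD, n = 6 each), with a log2 fold change of 0.06 (95% interval -0.05 to 0.16; edgeR adjusted p 0.466). Within siZCC, replicate 2 stood above the others at 64.1 CPM, against 54.1 to 57.3 CPM. LRRTM1 (ENSG00000162951, chromosome 2, 80288351 to 80304749, minus strand), the scarcer of the pair, was at 8.86 ± 0.572 and 8.69 ± 0.791 CPM (SD, n = 6 each), with a log2 fold change of -0.03 (95% interval -0.16 to 0.10; edgeR adjusted p 0.790).

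Both LRRTM genes lie inside a catenin gene on the opposite strand, which bears on their counts because the strand setting of the counting is not given. LRRTM1 lies within CTNNA2 (79185231 to 80648861) and shares 0 exonic bases with it. LRRTM2 lies within CTNNA1 (138610967 to 138935034) and shares 445 exonic bases with it. CTNNA2, a neuronal alpha-catenin, was higher in siZCC, at 154.8 against 135.7 CPM (log2 fold change 0.19, SE 0.0455; edgeR adjusted p 0.00659), while CTNNA1 was at 506.7 and 513 CPM and did not pass the test (adjusted p 0.736). So the host gene CTNNA2 rose where LRRTM1, within it, did not pass the test. The other genes that overlap a member in the annotation and are in the table were all under 0.1 CPM in both groups.

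CNTNAP2 (ENSG00000174469, chromosome 7, 146116002 to 148420998, plus strand), which spans 2305 kb and is among the longest human genes, fell. It was between 28.2 and 31.6 CPM in siNC (median 29.6) and between 24.3 and 29.8 CPM in siZCC (median 26.5). Within siZCC, replicates 3, 4 and 6 were at 24.3, 25.1 and 24.3 CPM and replicates 1, 2 and 5 at 27.98, 29.04 and 29.8 CPM, the last 2 of these within the siNC range. The means of 29.8 ± 1.30 and 26.8 ± 2.48 CPM (SD, n = 6 each) gave a log2 fold change of -0.15 (SE 0.0520; 95% interval -0.26 to -0.04; edgeR adjusted p 0.0423), a percent change of -10.1. This call was lost when any 1 of 7 libraries was left out (siNC replicate 1, 2, 5 or 6, siZCC replicate 3, 4 or 6), with adjusted p between 0.015 and 0.106 over the 12 fits.

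In all, 4 of the 9 genes were called at an adjusted p under 0.05, 1 higher and 3 lower, with a median log2 fold change of 0.01 and a median size of 0.10. Over all 24671 genes, 22.2% were called, 11.4% higher and 10.8% lower, with a median of 0.00 (-0.00164) and a median size of 0.11. Among genes with a mean count of at least 50, fitted alone, 5573 of 18464 were called, a larger share. All 9 genes pass that filter, and 4 were called there too. With 9 genes, 4 calls stand little apart from either background, and the changes were of the usual size. The coefficient of variation between replicates was 4.82% in siNC and 3.38% in siZCC for NLGN2 and 5.35% and 2.56% for NLGN4X. It was 6.37% and 6.13% for NRXN3, and 4.38% and 9.28% for CNTNAP2, whose siZCC value was the largest of the 9 genes.

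**Figure D3:**
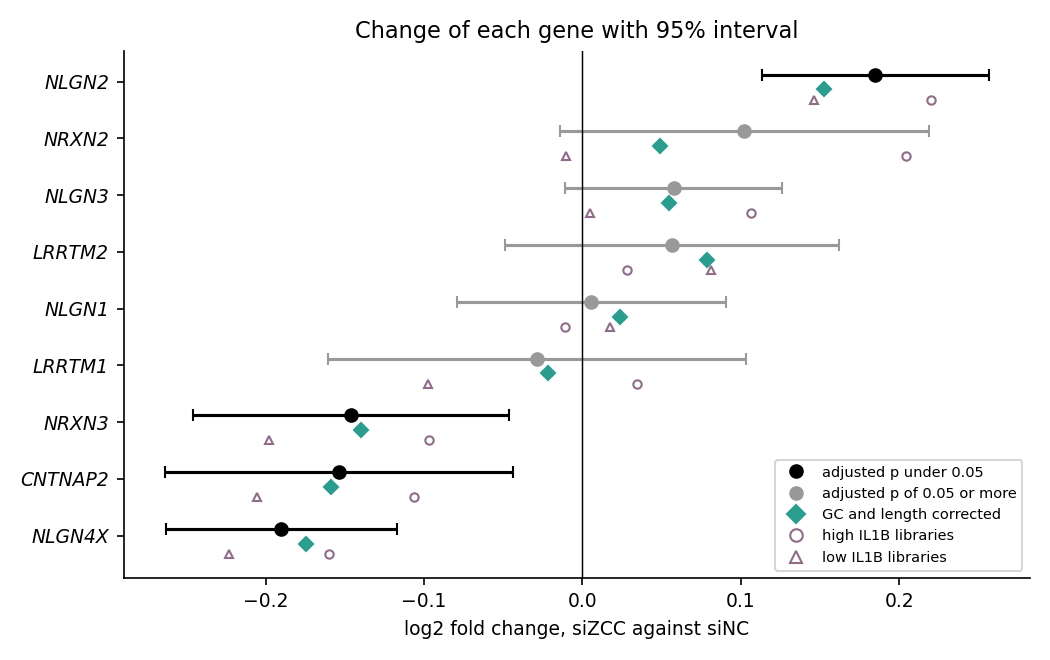
Log2 fold change of each gene (horizontal axis, siZCC against siNC) with its 95% interval, black where the adjusted p is under 0.05 and grey otherwise; diamonds give the value after correction for GC content and transcript length, open circles and triangles the separate fits of libraries high and low in IL1B. NLGN2 at 0.18 and NLGN4X at -0.19 lie farthest from 0. Each keeps its side in both sets of libraries, which follows from groups that do not overlap.

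Within the 2 sets of libraries by IL1B, each with 3 siNC and 3 siZCC libraries, the directions of the 4 called genes held, with fewer calls. For NLGN2 and NLGN4X, whose groups did not overlap, the same direction in both sets was given in advance. For NRXN3 and CNTNAP2 the sets are parts of the same 12 libraries that gave the calls. The directions are thus no separate evidence. NLGN2 was higher by 0.22 (SE 0.0401; edgeR adjusted p 0.0096) in the high set and by 0.15 (SE 0.0479; adjusted p 0.0962) in the low set. NLGN4X had log2 fold changes of -0.16 (SE 0.0564; adjusted p 0.106) and -0.22 (SE 0.0395; adjusted p 0.00937). NRXN3 stood at -0.10 and -0.20 and CNTNAP2 at -0.11 and -0.21, with edgeR adjusted p from 0.112 to 0.339 for both genes. Taking the set as a block kept all 4 calls, with NRXN3 at an adjusted p of 0.0369 and CNTNAP2 at 0.0427.

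NRXN2 differed most between the sets. In the high set its siNC mean was 302 ± 20.5 CPM and its siZCC mean 348.5 ± 4.64 CPM (SD, n = 3 each), a log2 fold change of 0.20 (edgeR adjusted p 0.0259). In the low set it was at 303 ± 30.3 and 300.9 ± 11.1 CPM (SD, n = 3 each), a log2 fold change of -0.01 (adjusted p 0.948). The difference between the sets, tested as an interaction in edgeR over all genes, was -0.22 (SE 0.0878; p 0.0261) with an adjusted p of 0.935, so it did not pass; 0 of 24671 genes passed that test, and 1177 had an unadjusted p under 0.05. NLGN3 stood at 0.11 in the high and 0.00478 in the low set, LRRTM2 at 0.03 and 0.08, NLGN1 at -0.01 and 0.02, and LRRTM1 at 0.03 and -0.10, none of them called in either set (edgeR adjusted p 0.128 to 0.965). No interaction of the other 8 genes had an unadjusted p under 0.0953.

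The 9 transcripts differ widely in base composition, from 35.2% GC in the longest NLGN1 transcript to 64.5% in that of NRXN2, and the comparison as a whole had a trend with GC content. In the highest of 10 equal bins of genes by GC content, which holds NLGN2 (62.6%) and NRXN2, the median log2 fold change was 0.05, with 19.2% of genes higher and 5.18% lower. In the bin that holds NLGN4X (45.5%) and CNTNAP2 (44.8%) it was -0.02, with 8.79% higher and 13.4% lower. NLGN2, at 0.18, was beyond the interquartile range of its bin (-0.06 to 0.15), and so were NLGN4X and CNTNAP2 in theirs (-0.12 to 0.10) and NRXN3 in its own (-0.12 to 0.10). Many genes of any bin lie outside that range by its definition, and these 4 were already picked as called. Their place outside it is thus description only. After the trend of each library with GC content and transcript length was removed, an alternative chosen with the data known, NLGN2 was at 0.15 (SE 0.0241; edgeR adjusted p 2.1e-04), NLGN4X at -0.17 (SE 0.0263; adjusted p 1.36e-04), CNTNAP2 at -0.16 (adjusted p 0.0184) and NRXN3 at -0.14 (adjusted p 0.0231). The value of NRXN2 went from 0.10 to 0.05 (adjusted p 0.458). All 4 calls were thus also made with the trend removed.

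**Figure D4:**
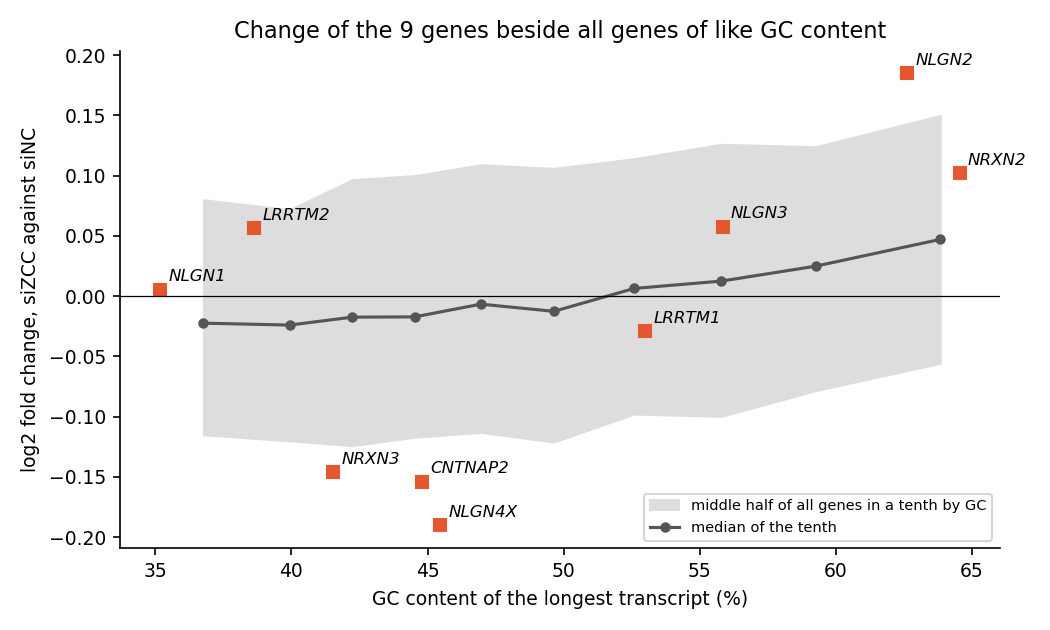
Log2 fold change of the 9 genes (squares, vertical axis, siZCC against siNC) against the GC content of their longest transcript (horizontal axis, percent), with the median (line) and the interquartile range (band) of all genes in each of 10 bins by GC content. NLGN2 lies above the band, NLGN4X, CNTNAP2 and NRXN3 below it, and the median runs from -0.02 to 0.05.

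The 3 genes that fell are also long: NLGN4X spans 388.2 kb, NRXN3 1697.9 kb and CNTNAP2 2305 kb. NLGN1, which spans 890.4 kb, did not pass the test, and NLGN2, which rose, spans 15 kb. Of the 829 genes kept that span over 300 kb, 11.6% were lower and 19.5% higher, with a median log2 fold change of 0.01. Of the 12065 genes that span at most 20 kb, 8.3% were lower and 9.72% higher. The share of lower calls was 13.8% from 20 to 50 kb, 14.5% from 50 to 100 kb and 13.7% from 100 to 300 kb, so it was largest at middle spans. The part of gene span in the results was not tested.

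With the group means removed, Pearson's r of log2 CPM between members across the 12 libraries is given here without a test. It was positive in 28 of 36 pairs, with a median of 0.44. NRXN2 and NLGN3 had an r of 0.84, NLGN2 and NLGN3 of 0.83 and NRXN2 and LRRTM1 of 0.80, while NLGN1 went with NLGN4X (0.77) and against NLGN2 (-0.43). All these values share the depth and base composition of the same libraries. With the GC and length trend removed, r was 0.84 for NRXN2 with NLGN3, 0.64 for NLGN2 with NLGN3 and 0.83 for NRXN2 with LRRTM1, but 0.46 for NLGN1 with NLGN4X and 0.17 for NLGN1 with NLGN2. NRXN2 with NRXN3 stood at 0.71 before and 0.86 after, NRXN2 with LRRTM2 at 0.34 and 0.80, and NLGN1 with NLGN3 at -0.24 and 0.47. Among 12624 genes of at least 5 CPM, those most like NLGN2 in this sense were EFS (0.94), ZSCAN18 (0.94) and ARHGAP1 (0.94), and those most like NLGN4X were ZC3H14 (0.95), MAP4K4 (0.93) and ODF2L (0.90). Values this high are reached by picking the top of many genes over 12 libraries.

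The other genes of synaptic adhesion were taken from 6 lists of 98 genes in all, of which 90 were kept: 18 were higher, 13 lower and 59 not called, with a median log2 fold change of 0.02 and a median size of 0.11. Their share of calls, like that of the 9 genes, can be read against the 22.2% called over all genes. With a mean count of at least 50, 30 of 87 were called, against 5573 of 18464 over all genes. In each list up to 2 genes with the smallest p in each direction are named. Of those named below, GRID1, NXPH2, DLG4, NTNG2, PTPRF, LGI1, CADM4, CDH2 and NCAM2 had groups without overlap. Over all genes 9.74% had none, but the named genes were picked for a small p, so this adds no separate evidence. Adjusted p-values are edgeR's over all genes kept.

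Among 17 other genes listed as neurexin ligands and organizers, not all of which bind neurexins directly, 2 were higher and 3 lower, with a median of -0.07. GRID1, a delta-type glutamate receptor that cerebellins bridge to neurexins, went from 8.42 ± 0.905 to 6.06 ± 0.567 CPM (log2 fold change -0.47, adjusted p 3.17e-04; SD, n = 6 each), without overlap of the groups. C1QL1, a secreted C1q-like synaptic ligand, rose by 0.26 (adjusted p 0.00214), and the neurexophilin NXPH2, a ligand of the long neurexins, had a log2 fold change of -0.29 (adjusted p 5.37e-04). Of 14 regulators and intracellular partners, 1 was higher and 3 lower, with a median of 0.01. DLG4 (PSD-95), the scaffold that binds neuroligin tails, rose by 0.16 (adjusted p 0.00264). KHDRBS3 (SLM2), an RNA-binding protein known to set neurexin splicing, was at -0.25 (adjusted p 0.00369), and MDGA1, which blocks neurexin binding by neuroligins and is best known for NLGN2, was at -0.23 (adjusted p 0.00838).

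Among 22 receptor phosphatases, their ligands and related leucine-rich repeat proteins, 9 were higher and 2 lower, with a median of 0.09. NTNG2, a netrin-G presynaptic protein, rose by 0.46 (adjusted p 4.73e-05), and PTPRF, one of the LAR-type presynaptic receptor phosphatases, went from 439.9 ± 21.4 to 508.9 ± 21.2 CPM (0.21, adjusted p 5.26e-04; SD, n = 6 each). The other two of that type, named here after their values were seen, were also called higher, PTPRD at 0.23 (adjusted p 0.0262) and PTPRS at 0.10 (adjusted p 0.031). The lower genes were scarce: SLITRK6 at 4.28 CPM in siNC (-0.34, adjusted p 0.0183) and LRFN2 at 0.30 CPM (-0.93, adjusted p 0.00527). Of the 10 latrophilins, FLRTs and teneurins 3 were higher and 0 lower, with a median of -0.00 (-4.68e-05). TENM2, a teneurin, rose by 0.25 (adjusted p 0.00214) and FLRT1, a latrophilin ligand, by 0.23 (adjusted p 0.0115); after the GC and length correction 4 genes of this list were higher and 4 lower, and in the low IL1B set 0 were called in either direction. The calls of the receptor phosphatase list went from 11 to 2 in the low set, both higher.

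Of 14 contactin-associated proteins, contactins and their partners 1 was higher and 2 lower, with a median of 0.07. The relative of CNTNAP2 at the paranode, CNTNAP1, was the 1 called higher, by 0.09 (adjusted p 0.0443). No gene of this list was called higher with upper quartile scaling, without a filter, in either IL1B set or in 8 of 12 fits without 1 library (siNC replicate 1, 2, 3 or 6, siZCC replicate 1, 3, 4 or 6), and without siNC replicate 5 there were 3 higher. LGI1, a secreted ligand of ADAM22, had a log2 fold change of -0.32 (adjusted p 2.16e-04) with no overlap of the groups, and EPB41L3, which anchors contactin-associated proteins to the cytoskeleton, of -0.20 (adjusted p 0.00655). Of 13 immunoglobulin and cadherin adhesion genes 2 were higher, CADM4 (0.16, adjusted p 0.00163) and CADM2 (0.29, adjusted p 0.00413), and 3 lower, among them CDH2 (N-cadherin; -0.21, adjusted p 8.18e-04) and NCAM2 (-0.20, adjusted p 0.0022), with a list median of 0.02.

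**Figure D5:**
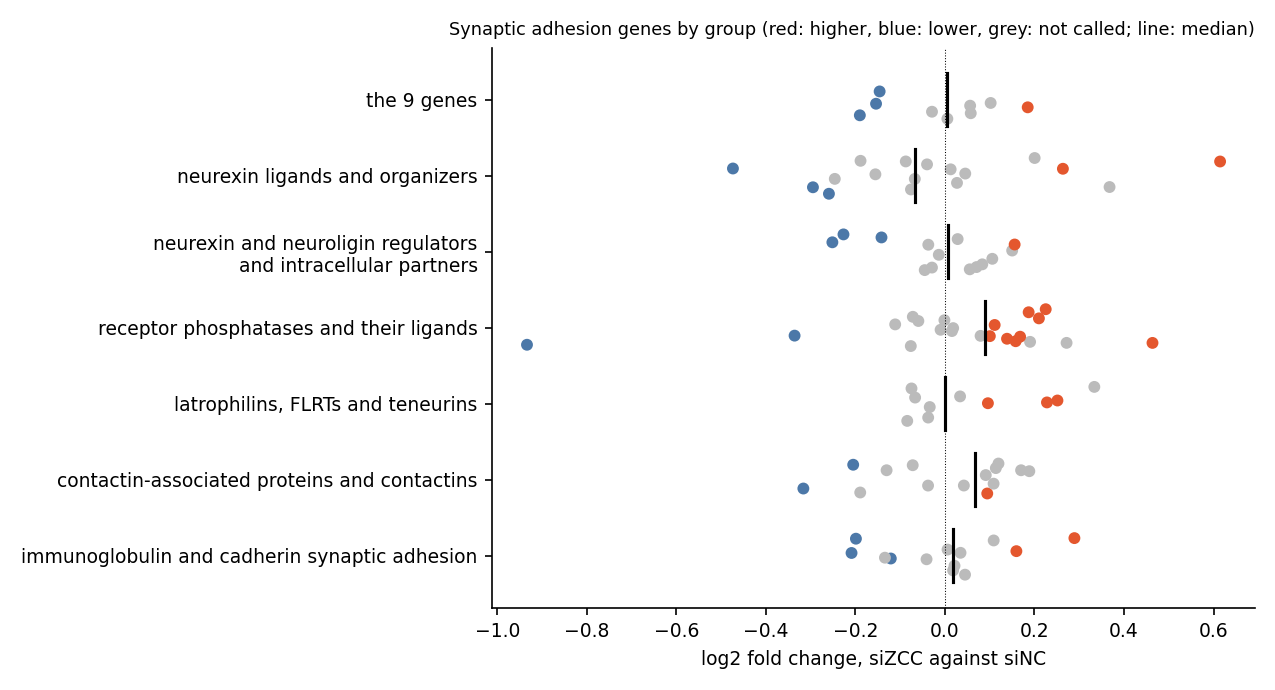
Log2 fold change (horizontal axis, siZCC against siNC) of the 9 genes and of the genes kept in 6 lists of synaptic adhesion genes, 1 point a gene, red where called higher, blue where called lower, grey otherwise, with the median of each list as a line. Medians lie between -0.07 and 0.09, and most lists hold genes called in both directions.

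Markers of some cell types were called and those of others were not. The counts of calls can be read against the 11.4% higher and 10.8% lower over all genes. Of 15 neuron markers, 1 was higher and 6 lower, with a median log2 fold change of -0.08, and their summed level was 4400 to 4940 CPM in siNC and 4070 to 4576 CPM in siZCC, overlapping ranges. The other 8 neuron markers were not called. Among the 9 genes described here, NRXN3, CNTNAP2 and NLGN4X were lower and NLGN2 was higher. Of 5 glutamatergic markers 1 was lower, and their sum went from a range of 29.6 to 33.8 CPM to one of 24.4 to 29.9 CPM; of 7 GABAergic markers, 6 kept, 0 were called, with sums of 316.1 to 347.9 and 300.6 to 338.8 CPM. Of 10 astrocyte markers 5 were higher and 1 lower (sums 1721 to 1937 and 1815 to 2130 CPM), and of 10 progenitor markers 4 were higher and 1 lower (6430 to 6848 and 6488 to 7045 CPM). All 10 proliferation markers were lower, with sums of 720.0 to 794.9 CPM in siNC and 541.6 to 636.5 CPM in siZCC. Of 9 oligodendrocyte lineage markers, 6 kept, 1 was lower (154 to 194.4 and 159.5 to 195.2 CPM, with MAG, MOG and SOX10 near 0), and microglia markers summed to 1.40 to 2.72 and 1.55 to 2.54 CPM, with 0 of 3 kept called. The part of cell composition in the results was not tested.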

How the data were processed

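The authors deposited whole-number counts per gene symbol for 12 libraries; bcl2fastq 2.17, STAR 2.7.6a, featureCounts 2.0.1 and build GRCh38 are named in the submitters' processing notes, and the annotation, strand setting and treatment of shared reads are not given in the sources used here. These counts, unchanged, went into edgeR 4.0.16 under R 4.3.3 (filterByExpr, TMM, glmQLFit, glmQLFTest over all 12 libraries, no covariate), with Benjamini-Hochberg adjustment over all 24671 genes kept and a threshold of 0.05. SE is the fold change over the square root of F; log2 CPM has a prior count of 2. The test was tried on simulated counts with known changes. Among genes of at least 5 CPM it called 75% of log2 changes of 0.25 and 20.8% of those of 0.15, so changes of 0.15 were mostly missed there. The simulation gave 59 calls, 5 of them false, far fewer than the 5481 calls of the real data, so these percentages do not carry over directly. Alternatives were other scalings and filters, DESeq2 1.42.0, limma 3.58.1 (voom), the replicate block, each library left out, the IL1B split (largest gap of log2 CPM in each group) and, added with the data known, a spline correction for GC content and transcript length from GENCODE v29, available for 94.6% of genes kept. Replicate numbers did not pair libraries.

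The members, the lists, the alternatives and the rule for named genes (all members and overlapping genes, the 2 smallest p per list and direction, ZCCHC17, and the 3 genes most like NLGN2 and NLGN4X) were chosen with earlier results of these data known. A gene of the wider lists that qualified under it is not reported here. Tables and figures were made in Python 3.11.15 with pandas 2.3.3 and matplotlib 3.10.9.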

Additional observations from a re-analysis of the deposited data

Results flagged for a closer look

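In groups of 6, a library was singled out where its gap to the nearest other library, as a share of the group's range, exceeded Dixon's 95% critical value. Among the 9 genes and the library totals, 20 groups in all, this held for LRRTM2, where siZCC replicate 2 was highest, with a log2 CPM of 6.00 where the rest had 5.76 to 5.84 (gap 0.658), and for the total of siNC replicate 4, the lowest of its group (90755953 against 109973707 to 120023356 counts, gap 0.657). About 1 group in 20 is singled out in this way by chance. Without siZCC replicate 2 the log2 fold change of LRRTM2 was 0.02 (edgeR adjusted p 0.811), and without siNC replicate 4 the same 4 of the 9 genes were called.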

How the results depend on the processing

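NLGN2 and NLGN4X kept their call in 23 of 24 alternatives each, all but one of the 2 fits by IL1B set; both sets hold 3 libraries a group, and fewer samples lower the calls. ZCCHC17 kept its call in all 24. Over all genes, 5481 calls became 2043 in the high IL1B set and 1602 in the low set, the 4 calls among the 9 genes became 2 and 1, and the 31 of the wider lists became 11 in the low set. Leaving out each library gave 2 to 4 calls among the 9 genes, 4484 to 5626 over all genes and 26 to 37 in the wider lists. The sign turned in genes that were not called in the main fit. NLGN1, near 0, went from 0.01 to -0.0029 with upper quartile scaling, -0.00089 without a filter and -0.011 in the high IL1B set. Over fits without 1 library NLGN1 ran from -0.0147 to 0.0344. LRRTM1, also near 0, went from -0.03 to 0.035 in the high set and ran from -0.0624 to 0.0051 without 1 library. NRXN2 was less stable: it went from 0.10 to -0.0102 in the low set, and it was called in the high set (0.20). Upper quartile scaling left 46.4% of calls higher against 51.4%, and the GC and length correction 56.8%, without a change of the 4 calls. Same-numbered libraries correlated between -0.077 and 0.0179 in their deviations from the group means, 0 of 6 best with their own number; with the replicate block 4902 genes were called, 4 of the 9 genes (1 higher, 3 lower) and 30 in the wider lists, and with the block and the GC correction 5978, 4 and 40. LRRTM1, on 658 to 1150 counts per library, had the fewest counts and the widest interval.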
